A study of Mus musculus with 6 samples.

Results

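The postsynaptic density is the protein meshwork under the membrane of excitatory synapses. A list of 35 genes that build it or signal within it was followed through 6 single-nucleus RNA libraries of mouse brain, and all 35 were found among the 33457 features counted in each library. The list was given by gene name and holds MAGUK scaffolds (Dlg1 to Dlg4), SAPAP scaffolds (Dlgap1 to Dlgap4), Shank and Homer scaffolds (Shank1 to Shank3, Homer2 and Homer3), CaMKII subunits with neurogranin (Camk2a, Camk2b, Camk2d and Nrgn), and auxiliary subunits of AMPA receptors (Cnih2, Cnih3, Cacng2, Cacng3 and Cacng8). It also holds LRRTM adhesion proteins (Lrrtm1 to Lrrtm4), regulators of small GTPases and actin (Kalrn, Baiap2, Agap2, Iqsec1, Iqsec2 and Rgs14), and the scaffolds Lrrc7, Anks1b and Grip1. Each gene was read in 5 neuron classes, one class at a time.

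Nuclei came from mice 9 months old of strain B6, with 1 library for each of 6 groups. The titles name the hippocampus, the protocol the left hemisphere, and how many animals made up a library is not stated. FE3 and FE4 were mice with APOE3 fl/fl or APOE4 fl/fl and no treatment, so all groups carried a floxed human APOE allele. TAFE3_oil and TAFE3_tam were P301S mice with floxed APOE3 and Aldh1la1CreERT, given oil or tamoxifen. TAFE4_oil and TAFE4_tam were P301S mice with APOE4 fl/fl and Aldh1la1CreERT, given oil or tamoxifen. P301S is a mutant form of the microtubule protein tau, and CreERT is a recombinase that works after tamoxifen and then removes floxed sequence; the cells in which it acted and the promoter of the tau transgene are not given. The tau libraries differ from FE3 and FE4 in tau, Cre and oil at once, and these cannot be told apart. In the same way tamoxifen and the loss of floxed APOE cannot be told apart. With 1 library in each group no difference between groups was tested, and no p-value is given.

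In an excitatory synapse the MAGUK proteins sit nearest to the membrane and hold receptors in place. SAPAP proteins link them to the Shank and Homer layer beneath, which in turn meets actin and internal calcium stores. Calcium frees calmodulin from neurogranin, and calcium-bound calmodulin activates CaMKII, which drives synaptic strengthening in the hippocampus. The cornichon (Cnih) and TARP (Cacng) subunits set the gating and traffic of AMPA receptors. LRRTM proteins reach across the cleft to presynaptic neurexins.

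Levels are given in CPM, the UMIs of a gene scaled to the same total in every class and library, where a UMI is 1 counted RNA molecule. Values over the libraries stand in the order FE3, FE4, TAFE3_oil, TAFE3_tam, TAFE4_oil, TAFE4_tam unless another order is stated. Depth was similar: the files held 14762 to 18171 barcodes and 39050503 to 49083723 UMIs per library, and 9881 to 14349 nuclei per library were used. The granule class held 2329, 3337, 740, 1128, 612 and 1536 nuclei, and the CA1 class 1646, 1919, 578, 953, 316 and 1085. The CA2 or CA3 class held 1254, 1282, 451, 665, 321 and 813, the subicular or cortical class 1747, 2067, 2131, 2514, 2409 and 2274, and the inhibitory class 819, 1043, 1037, 1095, 1490 and 1124. All markers of each class were detected in it (7 granule, 6 CA1, 7 CA2 or CA3, 13 subicular or cortical and 10 inhibitory). Detection means at least 1 UMI and was also reached in other classes, so it does not bear on the names. In summed CPM each list was highest in its own class in every library. The subicular or cortical list was the least distinct, at 2130 to 2989 CPM in its class, 1645 to 2251 CPM in CA2 or CA3 and 1584 to 2039 CPM in astrocytes. A cluster led by Rorb and Cux2 had only these 2 of the 13 subicular or cortical markers at 2-fold over other nuclei and was left unnamed. It held 39 and 19 nuclei in FE3 and FE4, and 1441, 264, 2345 and 757 in the tau libraries. The mitochondrial share set libraries apart: its class medians were 1.48% to 2.44% in FE3, but 0.266% to 0.499% in FE4 and 0.328% to 0.547% in TAFE4_tam. Pairs of libraries shared 65 to 83 barcodes, at most 0.528% of the smaller library. The tamoxifen and P301S labels held up, while counts per gene cannot tell APOE3 from APOE4, so those labels were not checked. Human APOE in astrocytes was 11933, 12639, 16164, 5535, 18793 and 5048 CPM, lowest in both tamoxifen libraries. Mapt, the tau gene as listed in the files, was 215, 193, 319, 293, 305 and 307 CPM in granule cells, higher in all 4 tau libraries than in FE3 and FE4.

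The results below turn most on 4 members, and the 300 bases around a start site of each are shown so that their promoters can be compared. They are Lrrtm4 and Cacng8, both lower in tau libraries in the subicular or cortical class, Homer3, the member that differed most between classes, and Grip1, at its highest in inhibitory neurons. The RefSeq windows are on GRCm38.p6, all on the plus strand: Lrrtm4 at chr6:80018627-80018926, Cacng8 at chr7:3393792-3394091, Grip1 at chr10:119453784-119454083 and Homer3 at chr8:70282749-70283048. Capitals mark CG pairs, the bases at which mammalian DNA is methylated.
Lrrtm4: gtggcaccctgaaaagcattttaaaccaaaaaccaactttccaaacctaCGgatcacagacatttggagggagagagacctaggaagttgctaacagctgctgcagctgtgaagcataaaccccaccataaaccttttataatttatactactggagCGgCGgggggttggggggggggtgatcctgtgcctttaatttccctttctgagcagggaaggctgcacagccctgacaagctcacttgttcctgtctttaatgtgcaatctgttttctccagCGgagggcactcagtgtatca
Cacng8: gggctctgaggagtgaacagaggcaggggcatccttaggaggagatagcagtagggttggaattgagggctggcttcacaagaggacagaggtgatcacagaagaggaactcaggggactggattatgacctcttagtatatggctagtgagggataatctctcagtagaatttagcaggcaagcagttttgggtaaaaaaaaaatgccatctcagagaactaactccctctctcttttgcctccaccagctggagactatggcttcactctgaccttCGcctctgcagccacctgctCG
Homer3: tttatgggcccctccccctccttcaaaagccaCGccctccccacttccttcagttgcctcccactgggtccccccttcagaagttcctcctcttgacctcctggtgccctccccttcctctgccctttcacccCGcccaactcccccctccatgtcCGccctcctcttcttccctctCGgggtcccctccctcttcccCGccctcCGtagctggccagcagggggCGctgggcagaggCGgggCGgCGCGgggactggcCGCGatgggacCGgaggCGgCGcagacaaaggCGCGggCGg
Grip1: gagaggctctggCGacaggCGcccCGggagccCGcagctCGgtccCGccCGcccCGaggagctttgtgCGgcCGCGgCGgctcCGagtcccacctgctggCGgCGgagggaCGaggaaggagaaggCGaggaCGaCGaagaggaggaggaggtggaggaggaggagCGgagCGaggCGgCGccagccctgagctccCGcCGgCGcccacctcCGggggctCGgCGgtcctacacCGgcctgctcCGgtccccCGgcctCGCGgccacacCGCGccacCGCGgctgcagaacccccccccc
The Lrrtm4 window holds 4 CG pairs, Cacng8 2, Homer3 19 and Grip1 38. Over all 32851 mouse windows of this length the median was 7, with quartiles of 3 and 20. The 48 windows found for 29 members had a median of 12. Cacng8, with its 1 listed window, lies below the lower quartile. The other Lrrtm4 window holds 9 CG pairs and the other Grip1 windows 1 and 7, so for both genes the place in the range depends on the start site, and which one was used is not known.

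For most members the neuron classes differed more than the libraries did. For each member the 6 libraries gave 6 values in a class, and the class with the highest median was compared with the lowest. The highest class exceeded the lowest in all 6 libraries for 35 of 35 members, and their 6 values did not overlap for 31. Among the 12784 genes with at least 100 UMIs in their highest class, taken in the same way, these shares were 86.4% and 57.4%. Picking the highest and the lowest class from the same values favours such a separation, and so does a high count. The ratio of the highest to the lowest class median ran from 1.36 for Lrrtm1 to 17.7 for Homer3, with a median of 2.78, and was at least 2 for 23 members and at least 5 for 9. Within a class, the highest library was typically 1.42 times the lowest. The class ratio was larger than the widest ratio between libraries within any class for 27 members. The counts of 23, 9 and 27 were not taken over all genes, so they describe the members and do not set them apart. The next class in the order was often not separate: 13 members had a highest class whose values did not overlap with the second, against 16.6% of the 12784 genes. CA1 was highest for 12 members, granule cells for 10, the subicular or cortical class for 7, inhibitory neurons for 5 and CA2 or CA3 for 1. Inhibitory neurons were lowest for 15 members, CA2 or CA3 for 8, granule cells for 5, CA1 for 4 and the subicular or cortical class for 3. The names of the classes came from other genes, and no member was used in clustering.

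**Figure D1:**
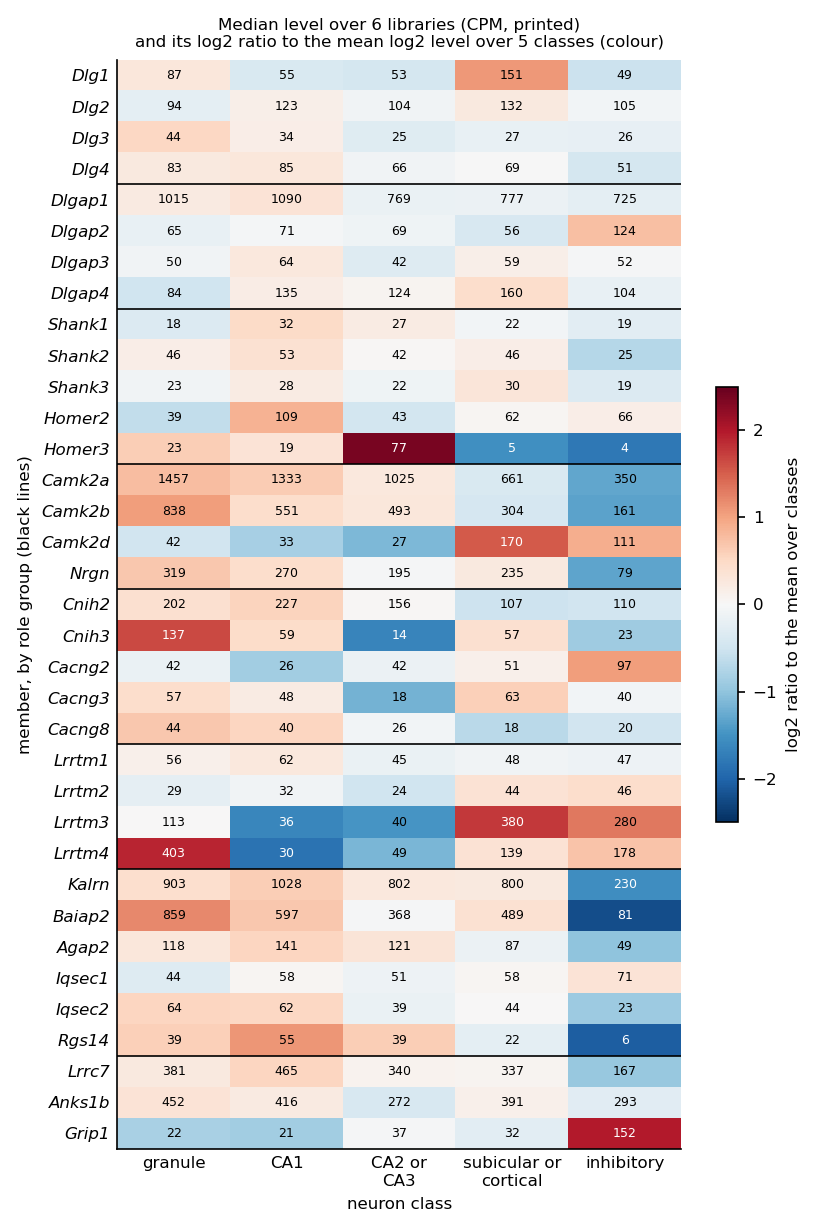
Median level over 6 libraries of each member (rows, grouped by role) in 5 neuron classes (columns), printed in CPM, with colour for the log2 ratio to the mean log2 level over the classes. Homer3 stands out in CA2 or CA3 at 76.8 CPM, Grip1 in inhibitory neurons at 152 CPM, and Lrrtm4 in granule cells at 403 CPM.

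Some RNA in every class is free RNA taken up with the nucleus, so levels in glia were set beside those in neurons. Markers of the choroid plexus (4 of 4 detected) summed to 1316, 722, 961, 715, 99.2 and 702 CPM in granule cells, lowest in TAFE4_oil. Granule markers summed to 1017 to 1361 CPM in granule cells, 50.7 to 97.2 CPM in CA1 and 124 to 264 CPM in astrocytes. They reached 714 to 818 CPM in oligodendrocytes, where Prox1 and Dock10 of that list were 2-fold over other nuclei. Glial nuclei were shallower, with median depths of 852 to 1070 UMIs in oligodendrocytes against 2087 to 2684 in granule cells. All 5 neuron classes were above the highest glial median for 18 members, and for 3 none was. Those are Dlg1, with 154 CPM in oligodendrocytes, Camk2d, with 281 CPM in microglia, and Iqsec1, with 86.2 CPM in astrocytes. Neither the 18 nor the 3 was set against a share over all genes. A member at or below the glial level is read as not shown above background in that class. This rule is cautious and does not mean that the neurons lack the member, since glia can express it themselves. The glial level is also not the level of free RNA in neurons. Homer3 had a median of 4.33 CPM in inhibitory neurons, under glial medians of 31.5 to 35.8 CPM. Camk2d had 27.2 CPM in CA2 or CA3.

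Among the MAGUK scaffolds, Dlg1 (SAP97, which also organises non-neuronal membranes) was highest in the subicular or cortical class, at 148, 121, 150.4, 153, 162 and 169 CPM. In inhibitory neurons it was 46.7, 32.0, 49.3, 55.1, 51.6 and 49.3 CPM. Every subicular or cortical value lay above every inhibitory one. Dlg4, which encodes PSD-95, the main scaffold of the density, was 124, 77.5, 76.1, 69.8, 92.6 and 95.8 CPM in CA1 and 67.5, 41.6, 45.3, 47.4, 57.5 and 54.5 CPM in inhibitory neurons. FE3 was the highest library for Dlg4 in both. Dlg2 (PSD-93) was nearly level over the classes, with medians from 93.6 CPM in granule cells to 132 CPM in the subicular or cortical class, and Dlg3 (SAP102) ran from 24.7 CPM in CA2 or CA3 to 43.6 CPM in granule cells.

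Among the SAPAP scaffolds, which bridge MAGUK and Shank proteins, only Dlgap2 was highest in inhibitory neurons, at 119.8, 128, 132, 113, 104 and 129.6 CPM. In the subicular or cortical class it was 47.7, 47.9, 55.8, 56.5, 62.1 and 65.6 CPM, with no overlap. Within inhibitory neurons the cluster with Sst and Pvalb had a median of 146 CPM and the cluster with Vip and Lamp5 85.2 CPM. Dlgap1 and Dlgap3 were highest in CA1, with 1089.8 and 63.6 CPM, and Dlgap4 in the subicular or cortical class with 160.1 CPM.

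Shank proteins are the master scaffolds beneath SAPAP, and Homer proteins tie them to metabotropic glutamate receptors. Homer3 had the largest ratio of the highest to the lowest class. It was 106, 87.8, 72.2, 70.6, 63.4 and 81.3 CPM in CA2 or CA3, against 21.0, 20.4, 25.8, 16.6, 24.8 and 29.3 CPM in granule cells, the next class. The lowest CA2 or CA3 library was above the highest granule library. Oligodendrocytes held 32.3 to 42.4 CPM of Homer3, so CA2 or CA3 was the 1 neuron class above the glial medians. In inhibitory neurons Homer3 was 2.03 to 6.30 CPM. Homer2 was instead highest in CA1, at 94.4, 88.8, 109, 109, 126 and 124 CPM, with the inhibitory class next at a median of 66.4 CPM. All CA1 values exceeded all inhibitory values. Its inhibitory level differed by cluster, with 109 CPM in Vip and Lamp5 nuclei and 35.9 CPM in Sst and Pvalb nuclei. Shank1, Shank2 and Shank3 had highest class medians of 32.4, 53.1 and 29.5 CPM, in CA1, CA1 and the subicular or cortical class.

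The CaMKII subunits split by class. Camk2a and Camk2b, the forebrain forms, were highest in granule cells, with medians of 1457 and 838 CPM, and lowest in inhibitory neurons, with 350.1 and 161 CPM. Camk2d, the form shared with heart and glia, was 214, 159.9, 159, 229, 144 and 181 CPM in the subicular or cortical class and 30.8, 26.1, 27.6, 25.1, 36.7 and 26.9 CPM in CA2 or CA3. These do not overlap, although microglia held more, with 264 to 302 CPM. Within the subicular or cortical class Camk2d had medians of 284 CPM in the Tshz2 cluster, 189.7 CPM in the Fn1 and Etv1 cluster and 91.4 CPM in the Foxp2 and Tle4 cluster. Neurogranin (Nrgn) had a median of 319 CPM in granule cells and 79.4 CPM in inhibitory neurons, where it was below the oligodendrocyte median of 179 CPM.

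Of the AMPA receptor partners, the cornichon Cnih3 was 100.2, 82.5, 144, 129, 163 and 149 CPM in granule cells and 11.5, 9.40, 16.2, 10.1, 18.4 and 16.9 CPM in CA2 or CA3. The granule values were all above the highest CA1 value of 74.9 CPM, and within granule cells all 4 tau libraries lay above FE3 and FE4. Cnih2 was lower in the subicular or cortical class, with a median of 107 CPM, and highest in CA1 with 227 CPM. The TARP Cacng2, known as stargazin, was highest in inhibitory neurons, at 84.9 to 108 CPM, against 18.7 to 42.6 CPM in CA1. Cacng3 was lowest in CA2 or CA3 with 18.4 CPM, and Cacng8 highest in granule cells with 44.3 CPM.

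Lrrtm3 and Lrrtm4, neurexin ligands that help to form synapses, had opposite favourites. Lrrtm4 was 407, 404, 356, 413, 379.5 and 401 CPM in granule cells and 46.2, 41.4, 24.3, 29.5, 23.5 and 30.6 CPM in CA1. Lrrtm3 was 408, 405, 352, 357, 380.3 and 379 CPM in the subicular or cortical class and 49.2, 44.8, 32.7, 37.3, 34.5 and 26.7 CPM in CA1. Both were thus lowest in CA1, with no overlap with the highest class. For Lrrtm3 the Foxp2 and Tle4 cluster had a median of 562 CPM, above the 218 CPM of the Tshz2 cluster and 317 CPM of the Fn1 and Etv1 cluster. Lrrtm1 was nearly flat, from 45.4 to 61.5 CPM.

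Among the GTPase and actin regulators, Baiap2 (IRSp53, which bends membrane at spines) was 959.6, 855, 864, 802, 789 and 883 CPM in granule cells. In inhibitory neurons it was 102, 82.1, 82.7, 80.0, 65.2 and 72.1 CPM, below the microglial median of 137 CPM. Kalrn, an exchange factor for small GTPases in spines, had a median of 1028 CPM in CA1 and 229.7 CPM in inhibitory neurons. Rgs14, known for restraining plasticity in CA2, was highest in CA1 at 45.3 to 65.3 CPM, next in CA2 or CA3 with a median of 39.1 CPM, and 3.37 to 11.1 CPM in inhibitory neurons. Iqsec1 was highest and Iqsec2 lowest in inhibitory neurons, at medians of 70.7 and 23.4 CPM. Of the other scaffolds, Grip1, which binds AMPA receptor tails, was 155, 151, 154, 147, 138 and 166 CPM in inhibitory neurons and 28.9, 21.2, 14.9, 25.9, 16.9 and 20.9 CPM in CA1. The second class, CA2 or CA3, reached 45.6 CPM at most, so the inhibitory values stood apart from every other class, at 4.07 times the second class against 3.35 times for Homer3. The Vip and Lamp5 cluster had 191 CPM and the Sst and Pvalb cluster 128 CPM. Lrrc7 (densin) and Anks1b had their highest medians in CA1 and granule cells, with 465 and 452 CPM.

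**Figure D2:**
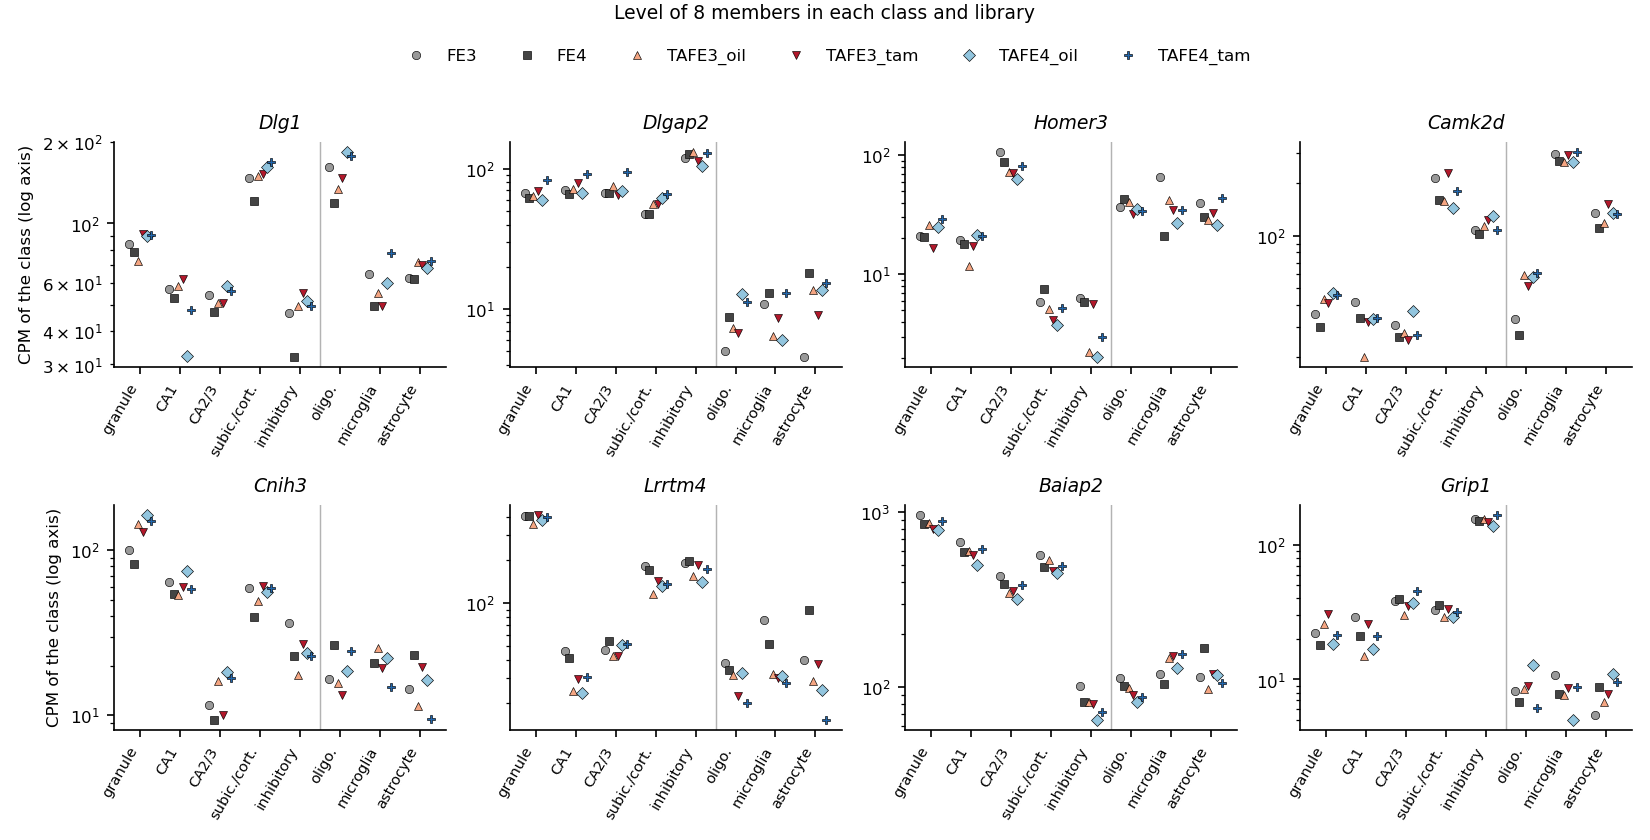
Level of 8 members in CPM (log axis) in each of 5 neuron classes and 3 glial classes (right of the line), with 1 point per library. Homer3 in CA2 or CA3 and Grip1 in inhibitory neurons lie above all other neuron classes in every library, while Camk2d is higher in microglia than in any neuron class.

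Differences between libraries were smaller. A member was counted in a class when both libraries together held at least 100 UMIs of it, and a difference was called when the CPM ratio reached 1.5-fold, 0.585 on the log2 scale. Over 7 comparisons this gave 1180 pairs of member and class, 67 calls and a largest fold of 2.41. The calls fell on 21 members, and 14 had none: Dlg2, Dlgap1, Dlgap2, Dlgap4, Homer2, Camk2a, Camk2b, Cacng3, Lrrtm1, Kalrn, Baiap2, Agap2, Lrrc7 and Anks1b. The intervals are exact 95% intervals of the ratio and cover counting error only, not the spread between animals. For every gene, fewer molecules per nucleus and a larger total of other RNA cannot be told apart in CPM.

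APOE4 without tau was compared with APOE3 without tau. In FE4 against FE3, 17 of 171 pairs were lower by 1.5-fold and 0 were higher, against 6.08% lower and 0.801% higher of all 45169 gene and class pairs. The median member was lower by log2 -0.26 in granule cells to -0.11 in inhibitory neurons, while the median of all genes was itself at -0.15 to -0.11. With TMM scaling, or centred on the median of all genes, 4 pairs were lower and 0 higher. No share of all genes under these scalings is given, here or in the comparisons below. Counts under them therefore do not set the members apart from all genes. The calls lay on Dlg4 in 4 classes, Cnih2 and Shank3 in 3 each, Dlgap3 in 2, and Shank1, Shank2, Rgs14, Nrgn and Cnih3 in 1 each. Among the calls with class medians below the highest glial median were Dlg4 in CA2 or CA3 and in inhibitory neurons. So were Cnih2 in the subicular or cortical class and in inhibitory neurons, and Nrgn in inhibitory neurons. No LRRTM pair of 20 and no pair of 15 for Lrrc7, Anks1b and Grip1 was called.

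Dlg4 in granule cells was 110.0 CPM in FE3 and 69.4 CPM in FE4, a log2 ratio of -0.66 (95% interval -0.84 to -0.49). In the other 4 libraries it was 80.1, 86.1, 81.9 and 83.6 CPM. FE3 was therefore the library that stood apart, and it was the highest of 6 for Dlg4 in all 5 neuron classes. Dlg4 in microglia, which do not form postsynaptic densities, was 119 CPM in FE3, on 11 UMIs, and 42.7 to 59.0 CPM in the other libraries, on 17 to 63 UMIs. Oligodendrocytes held 0.0550, 0.0194, 0.0675, 0.0472, 0.0541 and 0.0383 UMIs of Dlg4 per nucleus. Astrocytes held 0.150, 0.0960, 0.157, 0.154, 0.152 and 0.139, so FE4 was the lowest library in both. The mitochondrial share was also highest in FE3. The part of glial Dlg4 and of the mitochondrial share in the result was not tested. Within clusters Dlg4 was at -0.84 to -0.46 in FE4 against FE3, in 5 of 5 clusters of the subicular or cortical and inhibitory classes.

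Cnih2 in the subicular or cortical class was 176, 101, 99.3, 124, 110.1 and 105 CPM. FE3 was again above all other libraries, and FE4 against FE3 gave log2 -0.80 (-0.95 to -0.65). Oligodendrocytes held 208, 109, 125, 140.2, 103 and 93.9 CPM of Cnih2, with FE3 highest as well, so in this class the level was not above the glial level. Shank3 in CA2 or CA3 was 29.5, 16.7, 16.6, 25.4, 21.3 and 23.3 CPM, and FE4 against FE3 gave -0.82 (-1.19 to -0.45). In inhibitory neurons Shank3 was 20.02, 10.1, 18.3, 18.4, 23.0 and 19.6 CPM, with FE4 apart from the rest, on under 100 UMIs over FE3 and FE4 and so without a call.

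The comparison of tau with no tau was made in each APOE background. In TAFE3_oil against FE3, 18 of 171 pairs were lower and 1 higher, against 4.47% lower and 2.69% higher of all pairs; centred on the median of all genes, the split was 14 lower and 3 higher, and with TMM 15 and 1. Members had medians of -0.19 to -0.10 by class, and all genes -0.10 to -0.01. The 18 lower calls lay on Dlg4 (CA1, CA2 or CA3, subicular or cortical), Cnih2 (subicular or cortical, inhibitory), Lrrtm3 (CA1, CA2 or CA3) and Lrrtm4 (CA1, subicular or cortical). Homer3, Camk2d and Grip1 in CA1, Dlgap3 and Shank3 in CA2 or CA3, Cacng8 and Rgs14 in the subicular or cortical class, Cnih3 in inhibitory neurons and Iqsec2 in granule cells had 1 each. Lrrtm2 in the subicular or cortical class was the 1 higher call. Of the lower calls, Lrrtm3, Lrrtm4, Homer3 and Camk2d in CA1 had class medians below the highest glial median. So did Lrrtm3 and Dlg4 in CA2 or CA3, Rgs14 in the subicular or cortical class, and Cnih2 in both of its classes. This comparison shares FE3 with the one before, and the Dlg4 and Cnih2 calls again rest on the high level in FE3. Without FE3, in TAFE4_oil against FE4, Dlg4 was at 0.05 to 0.47 over the 5 classes and Cnih2 at -0.02 to 0.51, with no call.

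Camk2d in CA1 was 41.7, 33.4, 20.1, 31.9, 33.1 and 33.7 CPM, below the glial classes of the same library except the oligodendrocytes of FE3 and FE4, and TAFE3_oil against FE3 gave -1.05 (-1.56 to -0.57). Only TAFE3_oil stood low. Lrrtm4 in the subicular or cortical class was 180.2, 171, 115, 142, 131 and 135 CPM, with -0.65 (-0.79 to -0.51) in TAFE3_oil against FE3. All 4 tau libraries were below FE3 and FE4. Within its clusters the ratio was -0.89 in Foxp2 and Tle4 nuclei, -0.36 in Fn1 and Etv1 nuclei and 0.04 in Tshz2 nuclei. In TAFE4_oil against FE4 these were -0.84, -0.18 and -0.16. Granule cells had a median of 403 CPM of Lrrtm4. Their markers in the subicular or cortical class summed to 115, 120, 73.6, 71.7, 81.8 and 80.1 CPM, also lower in the tau libraries. The part of granule RNA in the result was not tested.

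In TAFE4_oil against FE4, 14 of 171 pairs were higher and 3 lower, against 17.6% higher and 3.25% lower of all pairs, so the members' higher share was below that of all genes. The median of all genes was at 0.12 to 0.23 and that of members at 0.09 to 0.14. With TMM the split was 8 higher and 9 lower, and centred on the median of all genes 8 and 7. The direction of the members' calls thus depended on the scaling. The mitochondrial genes had a median log2 ratio of 1.40 to 1.77 here, and of -2.05 to -1.60 in FE4 against FE3. In CA1, choroid plexus markers summed to 518 CPM in FE4 and 68.3 CPM in TAFE4_oil, and microglial markers to 81.2 and 291 CPM. Their part in the result was not tested.

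The higher calls were Shank1, Camk2d and Cnih3 in granule cells, Nrgn, Cacng2 and Lrrtm2 in CA1, Lrrtm2 and Iqsec1 in CA2 or CA3, Lrrtm2 in the subicular or cortical class, and Dlg1, Dlg3, Shank2, Shank3 and Nrgn in inhibitory neurons. Camk2d in granule cells, Lrrtm2 and Iqsec1 in CA2 or CA3, and Dlg1 and Nrgn in inhibitory neurons had class medians below the highest glial median. Cnih3 in granule cells was 82.5 CPM in FE4 and 163 CPM in TAFE4_oil, a log2 ratio of 0.99 (0.78 to 1.19), and in the APOE3 background it was at 0.52. Cacng2 in CA1 was 25.8, 18.7, 25.7, 27.1, 42.6 and 23.7 CPM, and gave 1.19 (0.71 to 1.66), with TAFE4_oil the 1 high library. Nrgn in inhibitory neurons was 97.5, 49.3, 88.4, 70.4, 119 and 56.5 CPM and gave 1.27 (1.03 to 1.52). Oligodendrocytes held 212, 108, 208, 151, 252 and 138 CPM of Nrgn, in the same order of libraries and at a higher level, so no change in inhibitory neurons is read from it. The lower calls were Dlg1 and Lrrtm4 in CA1 and Cacng8 in the subicular or cortical class. Dlg1 in CA1 was 56.9, 53.0, 58.8, 62.3, 32.3 and 47.9 CPM, low in TAFE4_oil alone, on 44 UMIs. Every one of these values was below the oligodendrocyte median of 154 CPM.

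**Figure D3:**
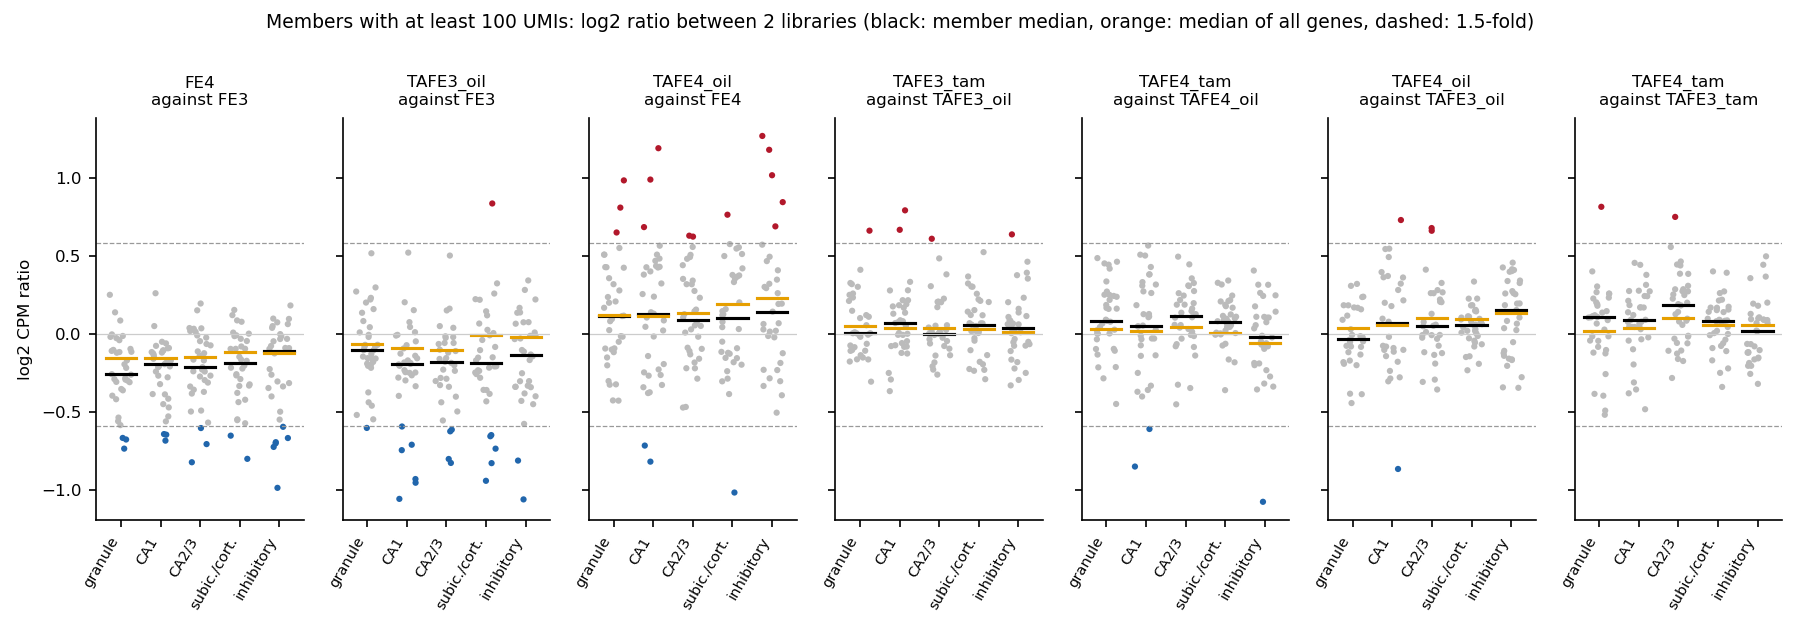
Log2 CPM ratio of each member with at least 100 UMIs (points) by class in 7 comparisons, with members past 1.5-fold (dashed lines) in red or blue, the member median in black and the median of all genes in orange. Calls are mostly lower in both comparisons against FE3, mostly higher in TAFE4_oil against FE4, and few in the other 4.

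The tau comparisons in APOE3 and APOE4 share no library, so members were compared across them. Of 171 pairs measured in both, 3 passed 1.5-fold in the same direction: Lrrtm4 in CA1 and Cacng8 in the subicular or cortical class lower, and Lrrtm2 in the subicular or cortical class higher. Over all genes 1.08% of pairs were lower in both and 1.75% higher in both, so the counts of 2 and 1 are near the background. Whatever the size, 59 of the 171 pairs (34.5%) were under 0 in both and 37 (21.6%) above 0 in both, against 25.6% and 34.9% of all pairs.

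Cacng8 encodes TARP gamma-8, the AMPA receptor subunit typical of the hippocampus. In the subicular or cortical class it was 27.0, 30.1, 14.1, 16.5, 14.9 and 18.6 CPM. All 4 tau libraries were below both libraries without tau. TAFE3_oil against FE3 gave -0.94 (-1.34 to -0.55), on 94 and 133 UMIs, and TAFE4_oil against FE4 gave -1.01 (-1.36 to -0.67), on 118 and 188 UMIs. In molecules it was 0.0761, 0.0910, 0.0441, 0.0541, 0.0490 and 0.0580 UMIs per nucleus, at median depths of 2590 to 3023 UMIs, against 0.00809 to 0.0161 in oligodendrocytes and 0.0224 to 0.0535 in astrocytes. In CPM its median of 17.5 was above the glial medians of 11.5, 13.8 and 14.4. Microglia held 21.7, 31.2, 16.7, 10.8, 8.03 and 10.8 CPM on 2 to 16 UMIs, also lower in the tau libraries, and granule markers in the class summed to 115, 120, 73.6, 71.7, 81.8 and 80.1 CPM. Their part in the result was not tested. The difference was present within the Fn1 and Etv1 cluster, at 36.6, 42.5, 15.8, 17.9, 17.3 and 21.2 CPM, with ratios of -1.21 (-1.81 to -0.64) and -1.29 (-1.79 to -0.82). When the clusters were weighted equally it was -0.86 and -1.04. The coarser clustering, which joins the Fn1 and Etv1 cluster with the unnamed Rorb and Cux2 cluster and so takes it out of the class, left -0.27 and -0.38. The other 9 alternatives kept both ratios past 1.5-fold. In granule cells, CA1, CA2 or CA3 and inhibitory neurons no comparison called Cacng8, but the direction was shared. In TAFE4_oil against FE4 it was at -0.42 (-0.83 to -0.04), -0.23, -0.47 and -0.39 in these classes. All but the granule interval include 0. In CPM, TAFE3_oil was below FE3 in each of these classes as well.

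Lrrtm2 in the subicular or cortical class was 27.0, 26.9, 48.3, 41.4, 45.7 and 46.0 CPM. All 4 tau libraries were above both libraries without tau. The ratios were 0.84 (0.54 to 1.14) and 0.77 (0.50 to 1.04). In Foxp2 and Tle4 nuclei the level was 47.9, 37.2, 70.7, 75.8, 67.1 and 75.1 CPM, with 0.56 (0.12 to 1.02) and 0.85 (0.39 to 1.34). In Fn1 and Etv1 nuclei it was 0.63 (0.08 to 1.18) and 0.12 (-0.32 to 0.56). The Foxp2 and Tle4 cluster, where Lrrtm2 is highest of the 3 clusters, made up 25.9% and 23.9% of the class in FE3 and FE4 and 52.2% and 51.0% in TAFE3_oil and TAFE4_oil. With clusters weighted equally the ratios were 0.48 and 0.50, both short of 1.5-fold. They were also short with the Rorb and Cux2 cluster added (0.56 and 0.55) and, in APOE4, with TMM (0.56) or centring (0.57). In microglia Lrrtm2 was 10.8, 15.6, 28.2, 30.2, 25.1 and 31.2 CPM, also above FE3 and FE4 in the tau libraries, but on 1 and 6 UMIs in FE3 and FE4. Its part in the result was not tested.

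Lrrtm4 in CA1 was 46.2, 41.4, 24.3, 29.5, 23.5 and 30.6 CPM, with -0.93 (-1.39 to -0.49) and -0.82 (-1.39 to -0.28), on 52 and 227 UMIs and on 32 and 264 UMIs. The 4 tau libraries were below the others. In APOE4 the ratio was -0.44 with no mitochondrial filter and -0.51 with at most 1% mitochondrial UMIs. Oligodendrocytes held 38.04, 34.3, 31.6, 22.3, 32.3 and 20.01 CPM, microglia 75.9, 51.9, 32.1, 30.2, 31.1 and 27.8 CPM, and astrocytes 39.9, 89.9, 28.5, 37.7, 24.6 and 15.3 CPM. The CA1 median of 30.1 CPM was below all 3 glial medians, and microglia were also lower in every tau library. In CPM Lrrtm4 in CA1 was thus not shown above background. In molecules it was 0.138, 0.138, 0.0900, 0.103, 0.101 and 0.101 UMIs per nucleus, at median depths of 2796 to 3891 UMIs. Oligodendrocytes held 0.0215 to 0.0388, microglia 0.0261 to 0.0673 and astrocytes 0.0309 to 0.208 UMIs of Lrrtm4 per nucleus. Since CPM and molecules per nucleus differ here, no change in CA1 is read from it. Markers of granule cells, which express Lrrtm4 strongly, summed to 97.2, 84.2, 55.5, 56.3, 50.7 and 56.0 CPM in CA1, with 7 of 7 detected, and granule nuclei were 23.3% of FE3 and FE4 nuclei but 5.24% to 12.03% in the tau libraries. Their part in the result was not tested.

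**Figure D4:**
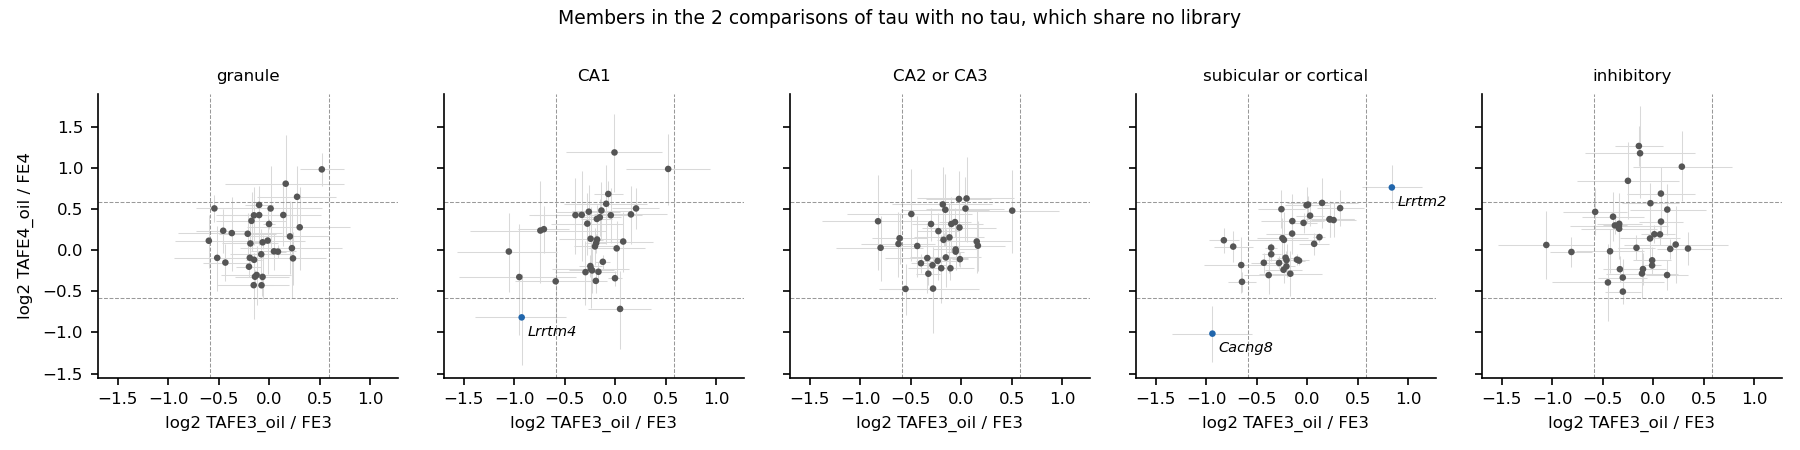
Log2 ratio of each member in TAFE3_oil against FE3 (horizontal) and in TAFE4_oil against FE4 (vertical), by class, with 95% counting intervals and dashed lines at 1.5-fold. Of 171 pairs, only Lrrtm4 in CA1, Cacng8 and Lrrtm2 in the subicular or cortical class lie past the lines in the same direction on both axes.

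**Figure D5:**
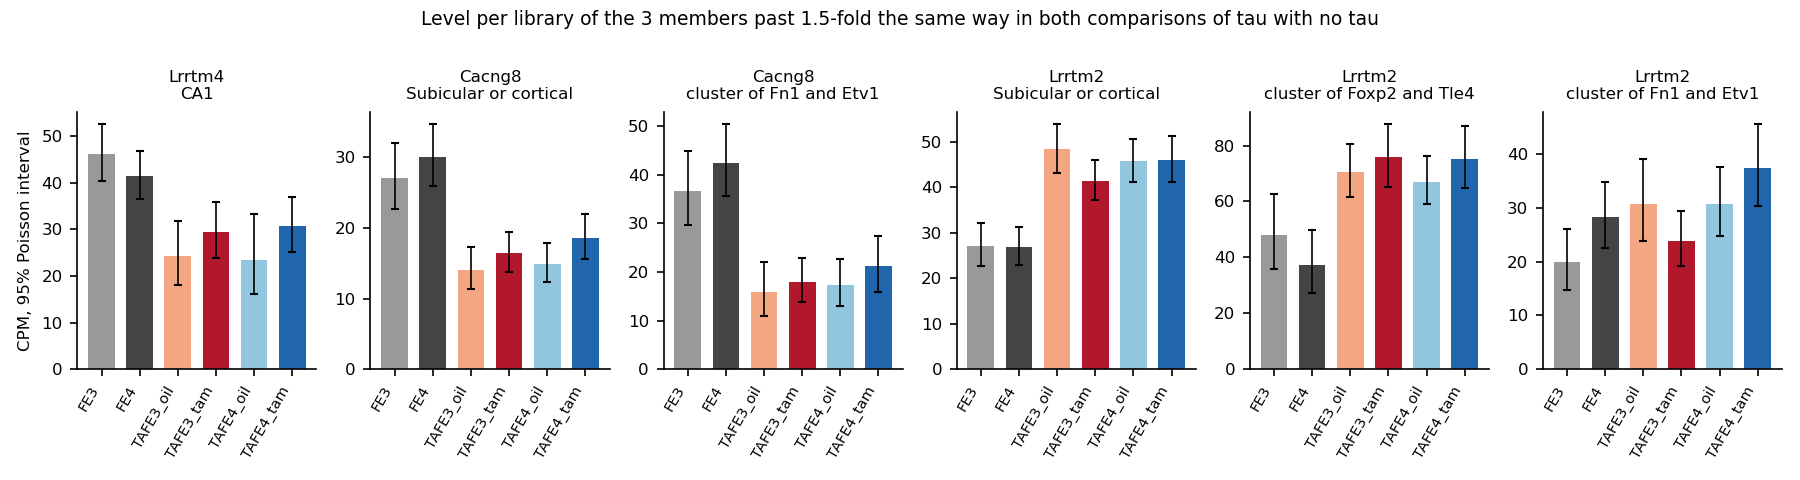
CPM of these 3 members in each library, in the class and in clusters within it, with 95% Poisson intervals. Cacng8 in the Fn1 and Etv1 cluster is 36.6 and 42.5 CPM without tau and 15.8 to 21.2 CPM in the 4 tau libraries.

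A class mean can hide opposite differences within it. Camk2d, singled out after its values were seen, was lower with tau in Foxp2 and Tle4 nuclei, at 169, 122, 74.1, 87.5, 77.4 and 95.3 CPM, and higher in Fn1 and Etv1 nuclei, at 139, 89.6, 225, 263, 189.3 and 190.2 CPM. The tau ratios were -1.19 (-1.47 to -0.90) and -0.66 (-0.95 to -0.36) in the former and 0.70 (0.50 to 0.90) and 1.08 (0.87 to 1.29) in the latter. In each cluster the tau libraries did not overlap with FE3 and FE4. How many members or other genes separate in this way within a cluster was not counted, so this has no baseline. Microglial markers (7 of 7 detected) summed to 92.2 to 129 CPM in the subicular or cortical class of FE3 and FE4 and to 263 to 332 CPM in the tau libraries, and microglia hold much Camk2d. Its part in the result was not tested.

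Tamoxifen was compared with oil in both P301S backgrounds. In TAFE3_tam against TAFE3_oil, 5 of 167 pairs were higher and 0 lower, against 1.74% higher and 0.989% lower of all pairs; TMM and centring each left 4 higher. They were Rgs14 in granule cells, Camk2d and Grip1 in CA1, Shank3 in CA2 or CA3 and Cnih3 in inhibitory neurons. Camk2d in CA1 lay below its microglial median of 281 CPM. Grip1 in CA1 was 14.9 CPM with oil and 25.9 CPM with tamoxifen, 0.79 (0.19 to 1.43), on 32 and 86 UMIs. Rgs14 in granule cells was 33.3 and 52.8 CPM, 0.66 (0.23 to 1.12). In TAFE4_tam against TAFE4_oil, 3 of 170 pairs were lower and 0 higher, against 3.35% lower and 1.99% higher of all pairs; with TMM 2 were lower and 1 higher. They were Cacng2 and Lrrtm2 in CA1 and Nrgn in inhibitory neurons, each of which was highest of the 6 libraries in TAFE4_oil. Cacng2 gave -0.85 (-1.35 to -0.34), Lrrtm2 -0.61 (-1.05 to -0.15) and Nrgn -1.07 (-1.30 to -0.85), the last below the glial level.

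No member of 166 pairs passed 1.5-fold the same way in both tamoxifen comparisons. Over all genes 0.151% of pairs were higher and 0.144% lower in both, so a count of 0 in 166 is near the background. Cacng8 in the subicular or cortical class was at 0.22 (-0.17 to 0.62) and 0.32 (-0.05 to 0.69) with tamoxifen, and Lrrtm4 in CA1 at 0.28 (-0.22 to 0.80) and 0.38 (-0.20 to 1.00). Their tamoxifen levels lay between those of the oil library and the library without tau, with intervals that include 0. No partial return is read from this, and Lrrtm4 in CA1 was not shown above background in CPM. Lrrtm2 in the subicular or cortical class was at -0.22 (-0.45 to 0.00) and 0.01 (-0.21 to 0.23).

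APOE4 was compared with APOE3 within the P301S mice. In TAFE4_oil against TAFE3_oil, 3 of 158 pairs were higher and 1 lower, against 2.66% and 0.560% of all pairs; TMM and centring left 1 higher and 1 lower. The higher were Cacng2 in CA1, Dlg3 in CA2 or CA3 and Lrrtm3 in CA2 or CA3, and the lower Dlg1 in CA1 at -0.86 (-1.39 to -0.36). Lrrtm3 in CA2 or CA3, at 25.8 CPM in TAFE3_oil and 40.9 CPM in TAFE4_oil, was below the oligodendrocyte median of 52.6 CPM. Dlg1 in CA1 was below its oligodendrocyte median of 154 CPM. The Dlg3 median in CA2 or CA3, 24.7 CPM, was close to the astrocyte median of 24.1 CPM. In TAFE4_tam against TAFE3_tam, 2 of 172 were higher and 0 lower, against 2.23% and 1.60% of all pairs: Homer3 in granule cells at 0.82 (0.31 to 1.35), which is below its glial level there, and Cnih3 in CA2 or CA3 at 0.75 (0.13 to 1.39). Cnih3 had a median of 13.9 CPM in CA2 or CA3, below its glial medians of 15.4 to 20.1 CPM. The comparisons in mice without tau and in P301S mice given oil share no library, and no member of 157 pairs passed the same way in both, against 0.0236% higher and 0.0442% lower of all pairs. The member counts in these comparisons are near the background shares.

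A wider list of 50 other postsynaptic density genes, measured in 205 to 227 pairs, gave 10 lower and 0 higher calls in FE4 against FE3, 15 lower and 2 higher in TAFE3_oil against FE3, and 42 higher and 9 lower in TAFE4_oil against FE4. The lower calls against FE3 are 4.44% and 6.73% of its pairs, where 6.08% and 4.47% of all pairs were lower. The calls in TAFE4_oil against FE4 are 18.5% and 3.96% of its pairs, near the 17.6% and 3.25% of all pairs given above. The other 4 comparisons had 4 to 9 higher and 0 to 6 lower. These are 1.79% to 4.39% and 0% to 2.74% of its pairs, against 1.74% to 2.66% and 0.560% to 3.35% of all pairs. For 8 genes of the inhibitory postsynapse, measured in 37 or 38 pairs, no comparison had more than 2 calls. In TAFE4_oil against FE4, 1 of its 37 pairs was higher and 1 lower, against the same 17.6% and 3.25%. Over both lists, 2 pairs were higher and 4 lower in both tau comparisons, where 1.75% and 1.08% of all pairs were, so these too are near the background. Grip2, a relative of Grip1, was higher in the subicular or cortical class at 1.19 and 1.69. Shisa6, an AMPA receptor auxiliary protein like Cacng8, was lower there at -0.66 and -0.80, and Nos1 in CA1 at -0.92 and -1.47. With tamoxifen, 2 pairs were higher in both comparisons, where 0.151% of all pairs were. The wider list had 211 and 219 pairs measured in these comparisons, and a count of 2 is too small to set it apart. The pairs were Cacng4 in inhibitory neurons at 0.96 (0.36 to 1.58) and 0.91 (0.42 to 1.42), and Arc, an activity-induced gene, in CA1. Arc was at 0.64 (0.37 to 0.90) and 0.70 (0.40 to 1.01).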

How the data were processed

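Nuclei were profiled by droplet sequencing in 6 libraries. Per the labels' protocols, 3′ ends were sequenced with kits named as 5′, so which end was read is unclear. The deposited matrices hold raw UMI counts per feature and barcode; Cell Ranger, Seurat and mm10 are named in the submitters' processing notes without version or role, and 3.1.0 is the software version in the matrix headers.

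The 35 members and all lists were chosen with earlier results of these data known. Nuclei with at least 500 UMIs, 300 genes and at most 5% mitochondrial UMIs were kept. Doublets were scored with scrublet in scanpy 1.11.5 and removed at the expected rate of 0.8% per 1000 nuclei, since its own threshold marked 1 nucleus in 1 library. Counts were scaled to 10000 per nucleus, and 2000 variable genes, detected in at least 2% of nuclei, with members, mitochondrial, sex-linked, APOE and tau genes left out, gave 30 components, 15 neighbours and 20 Leiden clusters at resolution 1.0 (leidenalg 0.10.2). Clusters were named from fixed marker lists; unnamed clusters held 8.94% to 37.2% of nuclei, highest in TAFE3_oil and TAFE4_oil and including the Rorb and Cux2 cluster. Glial classes served as background.

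UMIs were summed per class and library, and CPM ratios given exact conditional binomial intervals (95%) and levels Poisson intervals, for counting error only. The ratio code was tested on simulated data. Values in every library were to be given for the member of each role group with the largest class ratio and for members past 1.5-fold the same way in both comparisons of a pair that share no library, with at most 4 genes per pair from the other lists, of which 1 is not reported here. The other members shown by library, such as Dlg4, Cnih2, Shank3 and Nrgn, were chosen after their values were seen. Alternatives were TMM factors (edgeR 4.0.16 in R 4.3.3), no or a stricter mitochondrial filter, at least 1000 UMIs per nucleus, doublets kept, members kept among the variable genes, resolution 0.5, equal cluster weights, a minimum of 20 UMIs and a 2-fold threshold. Human APOE and other features were counted by the authors together with mouse genes. Promoter windows are from RefSeq.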

Additional observations from a re-analysis of the deposited data

How the results depend on the processing

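Each setting was changed alone, and centring on the median of all genes and adding the Rorb and Cux2 cluster were chosen after seeing the data. Counts of calls that moved by over 1.5 times were these, with no share of all genes under the changed setting to set beside them. In FE4 against FE3, 17 became 4 with TMM, 4 with centring and 0 at 2-fold. In TAFE3_oil against FE3, 19 became 10 with at most 1% mitochondrial UMIs, where FE3 keeps 115 to 365 nuclei per class, and 2 at 2-fold. In TAFE4_oil against FE4, 17 became 5 at 2-fold. In TAFE3_tam against TAFE3_oil, 5 became 2 with doublets kept, 3 with members among the variable genes, 9 with 20 UMIs and 0 at 2-fold. In TAFE4_tam against TAFE4_oil, 3 became 5 with no mitochondrial filter, 14 (11 higher, 3 lower) at 1% and 1 at 2-fold. In TAFE4_oil against TAFE3_oil, 4 became 2 at 1%, 2 with TMM, 2 with centring, 7 with 20 UMIs and 0 at 2-fold. In TAFE4_tam against TAFE3_tam, 2 became 9 (8 higher, 1 lower) at 1%, 1 with at least 1000 UMIs, 1 with doublets kept, 1 with members among the variable genes and 0 at 2-fold. The cause was not tested. Adding the Rorb and Cux2 cluster gave 17, 18, 19, 6, 3, 4 and 2 calls in the 7 comparisons. No ratio of the 3 members past 1.5-fold in both tau comparisons changed sign. No paired analysis was possible because each group holds 1 library, and leaving out a replicate was not possible for the same reason. Members with under 100 UMIs are beyond this depth.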
